A study of Mus musculus with 24 samples.

Results

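The response of elicited peritoneal macrophages (EPM) to 1 h of Kdo2 lipid A (KLA) was described across all genes of an Agilent mouse whole genome array. EPM are the macrophages that gather in the peritoneal cavity after an irritant is injected. Here they came from C57BL/6 mice injected with thioglycollate, were harvested 3 days later and rested overnight as adherent cells. The methods also give a change to fresh medium after this night, with treatment 24 h later. KLA is the minimal lipid A structure of bacterial endotoxin and a specific agonist of Toll-like receptor 4 (TLR4). The members were the 4 EPM channels of this contrast, 2 from cells treated with KLA for 1 h and 2 from untreated cells, of 24 channels in the series. Each array carried a pair of biological replicates of 1 condition, one in its Cy5 and the other in its Cy3 channel, so that a group was 2 channels of 1 array. The control was labelled untreated, whereas the methods also speak of solvent. EPM given KLA or DMSO for 12 h and bone marrow-derived macrophages (BMDM) given KLA or DMSO for 1 h served for comparison, and the series also held B cells.

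TLR4 on the macrophage surface, helped by CD14 and MD-2, passes the lipid A signal through the adaptors MyD88 and TRIF to NF-kappaB, to MAP kinases and to interferon regulatory factors. The earliest target genes are transcribed without new protein synthesis and encode cytokines, chemokines, transcription factors and inhibitors that shut the same pathways down again. Interferon-beta made in this wave acts back on the cells and induces a later group of interferon-stimulated genes.

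The largest increases were those of genes of secreted inflammatory mediators and of NF-kappaB inhibitors, and the promoters of some of them are shown. These are the 250 bases before the start of genes among the 15 largest increases that had 1 promoter window in the RefSeq table (build GRCm38.p6, read 5′ to 3′ on the strand of the gene) and held a match to the kappaB consensus, which NF-kappaB dimers bind, or to TATAAA near the start. Genes of the 15 without such a window or match are not shown, so that the shared letters follow from this choice. In the first set the kappaB matches are in capitals. They ended close to the start in Nfkbia, where the match began 29 bases before it, and lay farther away in Cxcl1 (71 bases), Cxcl2 (97 bases), Ifnb1 (116 bases) and Cxcl10, where overlapping matches began 104 and 103 bases before the start and a separate one began 159 bases before it.
Cxcl1 (chr5:90890995-90891244, plus strand): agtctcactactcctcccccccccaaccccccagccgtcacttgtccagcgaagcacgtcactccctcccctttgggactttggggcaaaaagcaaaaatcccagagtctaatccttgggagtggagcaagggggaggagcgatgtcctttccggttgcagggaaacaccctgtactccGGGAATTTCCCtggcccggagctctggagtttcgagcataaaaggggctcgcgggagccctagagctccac
Cxcl2 (chr5:90903649-90903898, plus strand): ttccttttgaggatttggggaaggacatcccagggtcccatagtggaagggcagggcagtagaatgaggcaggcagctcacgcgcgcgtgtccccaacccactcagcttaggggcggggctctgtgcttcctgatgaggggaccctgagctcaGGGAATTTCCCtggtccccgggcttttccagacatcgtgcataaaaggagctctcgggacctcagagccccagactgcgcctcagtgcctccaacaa
Cxcl10 (chr5:92348890-92349139, minus strand): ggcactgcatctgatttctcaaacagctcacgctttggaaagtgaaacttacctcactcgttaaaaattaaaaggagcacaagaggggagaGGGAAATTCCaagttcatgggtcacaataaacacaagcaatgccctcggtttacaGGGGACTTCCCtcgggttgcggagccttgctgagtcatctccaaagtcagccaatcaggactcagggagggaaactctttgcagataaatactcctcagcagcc
Ifnb1 (chr4:88522795-88523044, minus strand): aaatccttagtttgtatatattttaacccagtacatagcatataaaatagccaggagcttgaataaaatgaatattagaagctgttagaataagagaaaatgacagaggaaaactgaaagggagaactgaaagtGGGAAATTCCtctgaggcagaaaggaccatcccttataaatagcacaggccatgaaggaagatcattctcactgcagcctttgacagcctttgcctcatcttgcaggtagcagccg
Nfkbia (chr12:55492648-55492897, minus strand): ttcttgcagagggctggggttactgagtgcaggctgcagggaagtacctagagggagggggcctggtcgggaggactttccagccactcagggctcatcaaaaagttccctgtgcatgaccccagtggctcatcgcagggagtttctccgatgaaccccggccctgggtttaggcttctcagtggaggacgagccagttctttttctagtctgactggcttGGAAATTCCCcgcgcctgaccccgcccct
Cxcl1 and Cxcl2, which encode neutrophil-attracting chemokines and lie near each other on the chromosome, held the same capitalised stretch of letters. In the second set the capitals mark TATAAA, the letters that a TATA box commonly shows, which began 28 to 32 bases before the start.
Il1b (chr2:129371140-129371389, minus strand): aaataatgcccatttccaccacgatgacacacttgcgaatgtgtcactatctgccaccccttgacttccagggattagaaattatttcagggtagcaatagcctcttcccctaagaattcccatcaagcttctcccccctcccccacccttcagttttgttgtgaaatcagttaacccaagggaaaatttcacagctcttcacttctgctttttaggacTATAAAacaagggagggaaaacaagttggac
Il1a (chr2:129309973-129310222, minus strand): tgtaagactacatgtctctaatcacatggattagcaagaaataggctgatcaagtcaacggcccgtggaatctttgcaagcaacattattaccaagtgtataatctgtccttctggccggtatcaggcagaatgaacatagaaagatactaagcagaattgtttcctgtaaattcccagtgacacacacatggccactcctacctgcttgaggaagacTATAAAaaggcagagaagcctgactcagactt
Tnf (chr17:35202008-35202257, minus strand): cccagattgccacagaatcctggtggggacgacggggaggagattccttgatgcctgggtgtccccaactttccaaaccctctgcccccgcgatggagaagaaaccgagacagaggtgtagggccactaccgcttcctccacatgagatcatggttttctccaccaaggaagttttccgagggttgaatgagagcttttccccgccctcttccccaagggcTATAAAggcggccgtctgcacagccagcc
Acod1 (chr14:103046762-103047011, plus strand): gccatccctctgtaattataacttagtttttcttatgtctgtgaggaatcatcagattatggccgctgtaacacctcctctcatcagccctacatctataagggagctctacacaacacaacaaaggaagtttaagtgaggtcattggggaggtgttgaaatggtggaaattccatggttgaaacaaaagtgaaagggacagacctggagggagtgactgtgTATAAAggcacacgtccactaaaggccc
A match is a description of letters in the window, and no binding was measured on these arrays.

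Of the macrophage markers examined (Adgre1, Csf1r, Cd68, Itgam, Lyz2, Mertk, Fcgr1, Cd14, Mrc1 and Msr1), 10 of 10 were well above background in all 4 channels, and their summed normalized intensity was 314810 to 342110 in untreated cells and 307610 to 333480 after KLA. In such bulk samples, fewer cells of a type and less RNA per cell cannot be told apart. Of 9 neutrophil markers on the array, 5 (S100a8, S100a9, Ltf, Mpo and Mmp8) were well above background in all 4 channels. Camp, Ngp and Elane were not detected in any of the 4 channels. The summed intensity of the neutrophil list was 2794 to 2812 in untreated cells and 3630 to 3706 after KLA. S100a9 was higher by 1.94 on the log2 scale, and the part of neutrophils in the changes below was not tested. The 10 mesothelial and fibroblast markers were detected in every channel, at a summed intensity of 60578 to 65911 in untreated cells and of 62899 to 63919 after KLA. Between 60.7% and 65.0% of probes were well above background, and no spot was saturated. Because both replicates of a condition shared an array, differences between arrays and effects of KLA cannot be told apart within this contrast, and the p-values measure the spread between channels. A pair of EPM arrays with no KLA was compared for scale, but these also differed in culture time and vehicle, which cannot be told apart from array differences. EPM after 12 h of DMSO differed from untreated EPM in 3294 of 17190 genes (19.2%). Of these, 40 differed by more than 2-fold upward and 48 by more than 2-fold downward.

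Of 17193 genes tested, 5029 (29.3%) differed between KLA and untreated EPM (limma, Benjamini-Hochberg adjusted p under 0.05). Of these, 1616 (9.40% of the genes tested) were higher and 3413 (19.9%) were lower. With the normalized values that the authors deposited, the number of lower members moved by more than 1.5 times in 26 of the 45 gene lists examined, and fell in 38, while the number of higher members moved by that much in 4. Most of these differences were small, with a median of 0.42 on the log2 scale among the higher and -0.34 among the lower genes, and the median over all genes was -0.05. Large changes went the other way in number, with 287 genes (1.67%) more than 2-fold higher and 72 (0.419%) more than 2-fold lower. Above 4-fold the counts were 102 and 3, and 44 genes (0.256%) were more than 8-fold higher and none more than 8-fold lower, while the pair of control arrays differed by more than 4-fold in 1 gene each way. Both KLA channels lay beyond both untreated channels for 286 of the 287 genes and for all 72. For 285 and 69 of them, respectively, the KLA channels also lay beyond the 4 channels of both EPM control arrays. With the array means as samples and both control arrays as replicates, which leaves 3 residual degrees of freedom, 162 genes (0.942%) were called, among them 135 of the 287 and 16 of the 72.

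**Figure D1:**
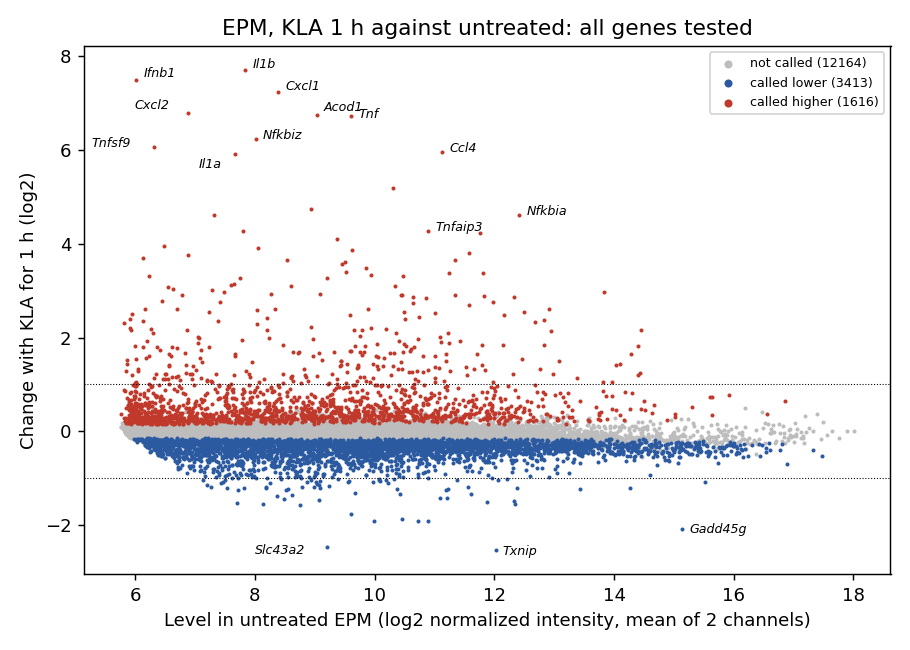
Change with KLA for 1 h (log2, vertical axis) against the level in untreated EPM (log2 normalized intensity, mean of 2 channels) for the 17193 genes tested, with genes called higher in red, called lower in blue and not called in grey; dotted lines mark 2-fold. The 1616 red genes reach 7.71 on the log2 scale at Il1b, whereas the 3413 blue genes end at -2.54 at Txnip.

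Cytokine genes rose most. Il1b (RefSeq NM_008361, probe at chr2:129056052-129056111 of mm8), which encodes interleukin-1 beta, had log2 intensities of 7.91 and 7.76 in the untreated channels and of 15.67 and 15.42 after KLA. Both KLA channels thus lay more than 7 log2 units above both untreated ones, a log2 change of 7.71 (standard error 0.08, limma adjusted p = 1.25e-20). Tnf, the gene of tumour necrosis factor, stood at 9.60 and 9.62 in untreated cells and at 16.31 and 16.37 after KLA, a log2 change of 6.73 (standard error 0.08). Ifnb1, which encodes interferon-beta, was not well above background in the untreated channels (5.99 and 6.05) and reached 13.66 and 13.37 after KLA, which is at least 181-fold higher. Il1a, an interleukin-1 gene next to Il1b, rose by 5.92.

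Of the 25 cytokine genes of the TNF, interleukin-1, interleukin-6 and interleukin-12 classes tested, 20 were higher and none was lower, against 9.40% and 19.9% of all genes, and 15 were more than 2-fold higher. The median of the list was 1.64 on the log2 scale, against -0.05 for all genes. Il10, an anti-inflammatory cytokine, rose from 6.24 and 6.21 to 9.68 and 9.40. Il6 rose from 6.60 and 6.51 to 9.67 and 9.57, a log2 change of 3.07. Gdf15, a member of the TGF-beta family, rose by 2.55, and Il1rn, which encodes the antagonist of the interleukin-1 receptor, by 1.64 with 1.17 from its other probe. Csf2, Il23a and Il12b, which encode a growth factor of granulocytes and macrophages and subunits of interleukin-23 and interleukin-12, were not well above background in untreated cells and were at least 5.58-fold, 4.32-fold and 2.90-fold higher after KLA.

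Chemokine genes split between a few strong increases and members that hardly moved. Of 13 CXC chemokine genes 6 were higher and 1 was lower, and of 18 CC and CX3C chemokine genes 10 were higher and 4 lower (1 lower with the authors' values). Cxcl1 went from 8.50 and 8.27 to 15.85 and 15.40 (log2 change 7.24, standard error 0.15), and Cxcl2 from 6.95 and 6.82 to 13.74 and 13.60 (log2 change 6.78). Cxcl3, another gene of these neutrophil attractants, was detected in 1 of 2 untreated channels and rose by 3.70. Ccl4 and Ccl3, whose products attract monocytes and T cells, were already bright in untreated EPM (11.07 and 11.19 for Ccl4, 10.26 and 10.34 for Ccl3). They reached 17.18 and 17.00 and 15.61 and 15.38, log2 changes of 5.96 and 5.20. Ccl2 and Ccl7, ligands of the monocyte receptor Ccr2, rose by 2.96 and 2.86. Cxcl10, a ligand of the T cell receptor Cxcr3, went from 9.0 and 8.86 to 13.76 and 13.60. Against this direction, Ccl6 (-0.43), Ccl27a (-0.55) and Ccl19 (-0.24, other probe -0.03) were lower by less than 2-fold. Ccl6 changed by 0.05 with array means as samples.

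Receptors of these ligands moved less. Of 22 chemoattractant receptor genes 9 were higher and 3 lower, and only Ccrl2, which encodes a chemerin-binding receptor, was more than 2-fold higher (from 11.84 and 11.78 to 15.18 and 15.20). Ccr7 rose by 0.78 and Fpr1 by 0.82, whereas Cxcr4 fell by 0.66. Among the 19 growth factor and vascular mediator genes 8 were higher and 2 lower, with Adm (1.88) and Pdgfb (1.29) more than 2-fold higher. Areg, an EGF receptor ligand, was at least 2.65-fold higher than the untreated channels, in which it was not well above background.

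**Figure D2:**
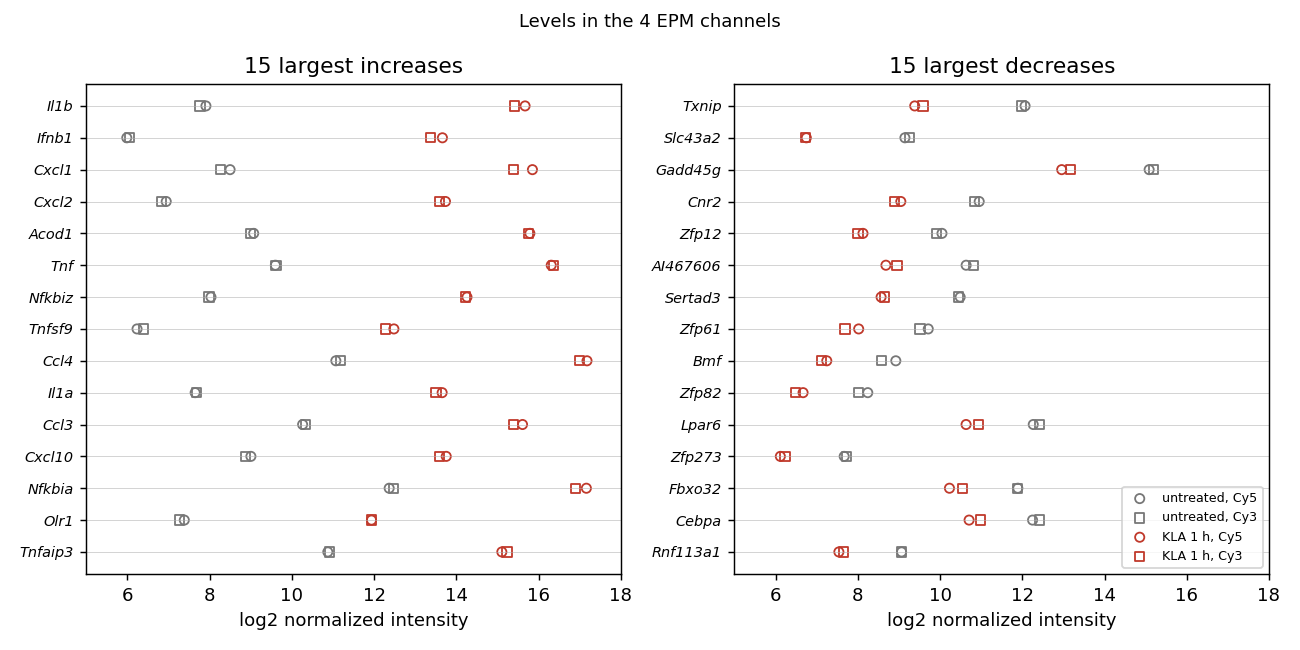
Log2 normalized intensity in each of the 4 EPM channels for the 15 largest increases (left) and the 15 largest decreases (right) by the naming rule, with untreated channels in grey, KLA channels in red, circles for Cy5 and squares for Cy3. The channels of a group lie close to each other, the rule itself chose genes whose groups do not overlap, and the gap is widest for Il1b at 7.71 and reaches -2.54 at Txnip among the decreases.

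Among the Toll-like receptor and co-receptor genes, Tlr2 and Cd14 rose most. Tlr2, a receptor of bacterial lipoproteins, rose from 10.49 and 10.47 to 13.82 and 13.79 (log2 change 3.32, standard error 0.05), and Cd14, the co-receptor that hands lipid A on, from 12.82 and 12.83 to 15.13 and 15.28 (2.38). Tlr4 itself was not called (9.87 and 9.82 in untreated cells, 9.75 and 9.76 after KLA), and Ly96, which encodes MD-2, was not called either at 0.24. Of 16 Toll-like receptor and co-receptor genes 5 were higher and 1 was lower. Among 28 adaptor and kinase genes 10 were higher and 3 lower. Traf1, an adaptor of TNF receptors, rose by 2.94 and Peli1, a ubiquitin ligase of the pathway, by 1.92. Tab1, which encodes a partner of the kinase TAK1, fell from 11.64 and 11.60 to 10.70 and 10.86 (log2 change -0.84), and Tirap, the bridging adaptor of TLR4, fell by 0.39. Of 16 genes of cytosolic pattern receptors and inflammasomes 6 were higher and 1 lower, led by Mefv (2.74), the gene of pyrin, and Nod2 (2.55), a sensor of bacterial cell walls. Nlrp3, the inflammasome sensor, rose by 1.22 and Casp4, a caspase that senses lipopolysaccharide in the cytosol, by 1.41.

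Most genes of the NF-kappaB subunits and inhibitors were higher. Of 22 genes on the list 16 were higher and 2 lower, 12 of them more than 2-fold higher, and the median was 1.20. Nfkbia, which encodes the inhibitor I-kappaB-alpha, went from 12.37 and 12.47 to 17.16 and 16.91 (log2 change 4.62). Tnfaip3, the ubiquitin-editing enzyme A20, went from 10.88 and 10.92 to 15.11 and 15.24 (4.28), and Nfkbiz, a nuclear I-kappaB protein, from 8.03 and 7.99 to 14.26 and 14.22 (6.23). For all of these the lowest KLA channel lay more than 4 log2 units above the highest untreated one. The inhibitors Nfkbie (3.57), Tnip3 (2.78) and Nfkbid (2.15) rose too. Among the DNA-binding subunits, Rel rose by 2.09, Relb by 1.80, Nfkb2 by 1.68, Nfkb1 by 1.17 and Rela by 0.93. Ikbkg, the regulatory subunit of the I-kappaB kinase, fell by 0.51, although its other probes gave -0.10 and 0.29, and Nkiras2, which encodes an I-kappaB-interacting inhibitor, fell by 0.45 (-0.43 from its other probe).

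Immediate-early transcription factor genes rose, 18 of 25, with 2 lower and a median of 0.88. Egr1 went from 9.49 and 9.24 to 13.43 and 13.51 (log2 change 4.10), Maff, a small Maf factor, from 9.86 and 9.84 to 13.36 and 13.32 (3.49), and Nr4a1, an orphan nuclear receptor, from 11.31 and 11.16 to 14.58 and 14.65 (3.38). Nr4a1 also differed between the control arrays, by -2.22 from untreated to 12 h of DMSO. Csrnp1 rose by 3.81, with 1.55 to 3.40 from its other probes. Junb (2.17), Myc (2.03) and Fos (1.38) were higher, while Jun was not called (0.12) and Atf3, which was among the bright genes of untreated EPM at 15.05 and 14.95, fell to 14.62 and 14.58. The next families are set against 9.40% of all genes higher and 19.9% lower. Of 15 Kruppel-like factor genes 4 were higher (26.7%) and 5 lower (33.3%), with Klf6 at 1.41, Klf7 at 1.33 and Klf10 at -1.0. The brightest probe of Klf2 gave -0.29 and was not called, whereas its other probe gave 2.45. Of 16 genes of interferon regulatory factors and STATs 3 were higher and 3 lower (18.75% each, for the lower ones near the share of all genes). Irf1 rose by 2.49 and Irf4 by 1.60. Irf8, a factor of the monocyte lineage, fell from a mean of 12.91 in untreated EPM to 11.93 and 11.93 (log2 change -0.98).

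Among chromatin and transcription elongation genes 7 of 53 were higher and 11 lower, close to the shares of all genes. Kdm6b, a histone H3 lysine 27 demethylase, stood out of that list, from 8.63 and 8.44 to 12.35 and 12.03 (log2 change 3.66). Arid5a rose by 1.16 and Ell2, an elongation factor, by 1.13, although the other probe of Arid5a gave -0.69. Brd3 fell by 0.57 and Kdm3a by 0.48.

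Among genes that restrain signalling, the list of MAP kinase inhibitors had the most higher members. Of 23 MAP kinase phosphatases and related inhibitors 16 were higher and 3 lower, with a median of 0.94. Dusp1, a phosphatase of p38 and JNK, went from 11.38 and 11.29 to 15.04 and 14.93 (log2 change 3.65), Errfi1, an inhibitor of the EGF receptor, from 10.29 and 10.39 to 13.46 and 13.43 (3.1). Trib1 rose by 2.15, whereas the related Trib3 fell by 0.77 and Trib2 by 0.32. In the list of JAK-STAT feedback 7 of 20 genes were higher and 2 lower, with a median of 0.02. Socs3, the inhibitor of interleukin-6 receptor signalling, went from 11.72 and 11.79 to 16.04 and 15.92 (4.22), and Cish and Pim1 rose by 2.75 and 1.97. Of 27 regulators of mRNA decay 10 were higher and 4 lower, with a median of 0.09. The endonuclease gene Zc3h12a went from 7.66 and 7.63 to 10.95 and 10.63 (3.14), its relative Zc3h12c rose by 3.11, Noct, a deadenylase-like enzyme, by 2.91 and Zfp36, which encodes tristetraprolin, by 2.01. Tob2 (-0.37) and Zfp36l2 (-0.46) were lower.

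Interferon-stimulated genes formed an uneven group at 1 h. Of 38 genes of the type I list 17 were higher and 4 lower, 9 were more than 2-fold higher, and the median was 0.18. Ifit1, which encodes an RNA-binding antiviral protein, went from 7.89 and 7.71 to 12.03 and 12.10 (log2 change 4.27), and Isg15, a ubiquitin-like modifier, from 9.61 and 9.64 to 13.63 and 13.34 (3.86). Rsad2 rose by 2.91 and Mx2 by 2.36, while Mx1 was not called (0.11). The control arrays differed in the opposite direction for some of these, by -1.13 for Ifit1, -1.09 for Isg15 and -1.90 for Ifit3. Of 14 guanylate-binding protein and immunity-related GTPase genes 5 were higher and 2 lower, with Gbp5 at 3.27 and Irgm2 at -0.52.

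At the cell surface, 13 of 30 costimulatory and adhesion genes were higher, 5 were lower (2 with the authors' values) and 12 were not called, with a median of 0.07. Cd83 went from 12.33 and 12.32 to 15.22 and 15.18 (log2 change 2.87). Cd40, which receives help from T cells, rose by 2.58 and Icam1, the ligand of leukocyte integrins, by 2.52. Vsir, an inhibitory ligand, fell by 0.61 and Itgb2, the beta subunit of those integrins, by 0.48. Among 26 TNF superfamily ligand and receptor genes 5 were higher and 1 lower. Tnfsf9, the 4-1BB ligand, went from 6.24 and 6.39 to 12.48 and 12.28 (log2 change 6.07), Tnfsf14 rose by 2.02 and Cd70 fell by 0.64. Of 29 scavenger and C-type lectin receptor genes 6 were higher and 4 lower (8 and 0 with the authors' values). Olr1, a receptor of oxidized lipoproteins, went from 7.38 and 7.26 to 11.94 and 11.93 (4.61). Fc receptor and complement genes changed little, with 2 of 23 higher and 5 lower (3 and 2 with the authors' values), among them Fcgr3 at -0.71 (its other probe at -0.14). Antigen presentation genes did not move as groups: 3 of 14 class II genes were higher and 2 lower, and 2 of 19 class I genes were higher and 5 lower (2 and 0 with the authors' values).

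Among 38 genes of receptors for lipids, nucleotides and metabolites 10 were higher (26.3%) and 7 lower (18.4%), against 9.40% and 19.9% of all genes. Gpr84, a receptor of medium-chain fatty acids, rose by 2.91 and Adora2b, an adenosine receptor, by 2.42. Lpar6, a receptor of lysophosphatidic acid, went from 12.27 and 12.41 to 10.63 and 10.94 (log2 change -1.56), and S1pr2, a receptor of sphingosine 1-phosphate, from 11.29 and 11.15 to 10.01 and 9.98 (-1.22). Of 27 genes of prostaglandin, leukotriene, nitric oxide and itaconate enzymes 9 were higher and 4 lower. Acod1, which makes itaconate, went from 9.07 and 8.99 to 15.79 and 15.75 (log2 change 6.74, with 6.66 from its other probe), and Ptgs2, the inducible cyclooxygenase, rose by 2.97. Nos2, the inducible nitric oxide synthase, was not well above background in either group. Of 32 genes of matrix proteases and coagulation 13 were higher and 6 lower (2 lower with the authors' values). F3, which encodes tissue factor and starts clotting, went from 8.34 and 8.33 to 10.98 and 10.92 (2.62), whereas Thbd, which encodes the anticoagulant thrombomodulin, went from 10.16 and 10.50 to 9.21 and 9.41 (-1.02).

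Survival and stress genes are set against 9.40% of all genes higher and 19.9% lower. Of 34 apoptosis regulators 10 were higher and 10 lower (29.4% each). The inhibitors of cell death Cflar (2.88, with 0.53 to 3.01 from its other probes), Birc3 (1.60) and Bcl2a1b (1.25) were higher, and Bmf (-1.57) and Casp2 (-0.76), which promote it, were lower, although the other probes of Bmf gave -0.11 and -0.02. Of 30 heat shock and unfolded protein response genes 9 were higher (30.0%) and 6 lower (20.0%, near the share of all genes). Ppp1r15a, whose product reverses the block of translation, went from 9.38 and 9.65 to 12.73 and 13.12 (log2 change 3.41), and the heat shock gene Hspa1a rose by 2.18. Ddit3, the stress factor CHOP, went from 10.38 and 10.47 to 8.91 and 9.27 (-1.33). Of 25 genes of G1 cyclins and their inhibitors 6 were higher and 5 lower, with Plk2 (1.85) and Mdm2 (1.37) among the higher ones. The genes of the cell cycle machinery stayed near the background, with 5 of 41 higher and 6 lower, and Mki67 at 1.11.

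Lists of metabolism and of the protein machinery mostly had more lower than higher members, but these counts changed with the normalization. Of 60 oxidative phosphorylation subunit genes 23 were lower and 1 was higher (8 and 2 with the authors' values, and 36 lower with the dye as replicate block), and the median was -0.20, against -0.05 for all genes and 19.9% of all genes lower. Ndufa7, a complex I subunit, was the largest decrease of the list at -0.61, with -0.12 from its other probe. Of 31 genes of glycolysis and Hif1a 12 were lower and 4 higher (5 and 5 with the authors' normalized values), where the glucose transporter gene Slc2a6 rose by 1.67 and the kinase gene Pfkfb4 fell by 0.62. Of 51 lysosomal genes 14 were lower and 2 higher, but 3 were lower and 4 higher with the authors' values. Of 41 proteasome genes 13 were lower and none was higher, and with the authors' values 1 was lower. Of 83 ribosomal protein genes 24 were lower and 2 higher, but without normalization between arrays 3 were lower and 8 higher, and with the authors' normalized values 2 were lower and 5 higher. No gene of the oxidative phosphorylation, lysosome, proteasome or ribosome lists changed by more than 2-fold. With array means as samples none of these decreases was called. Of 22 genes of LXR targets and cholesterol efflux 6 were lower and none was higher (2 lower with the authors' values, 10 lower and 1 higher with the dye as block), with Mylip, a degrader of the LDL receptor, at -0.82 (other probe -0.25) and Abcg1, a cholesterol exporter, at -0.44. Of 28 sterol synthesis genes 5 were higher (17.9%) and 6 lower (21.4%, near the 19.9% of all genes, and 3 lower with the authors' values).

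**Figure D3:**
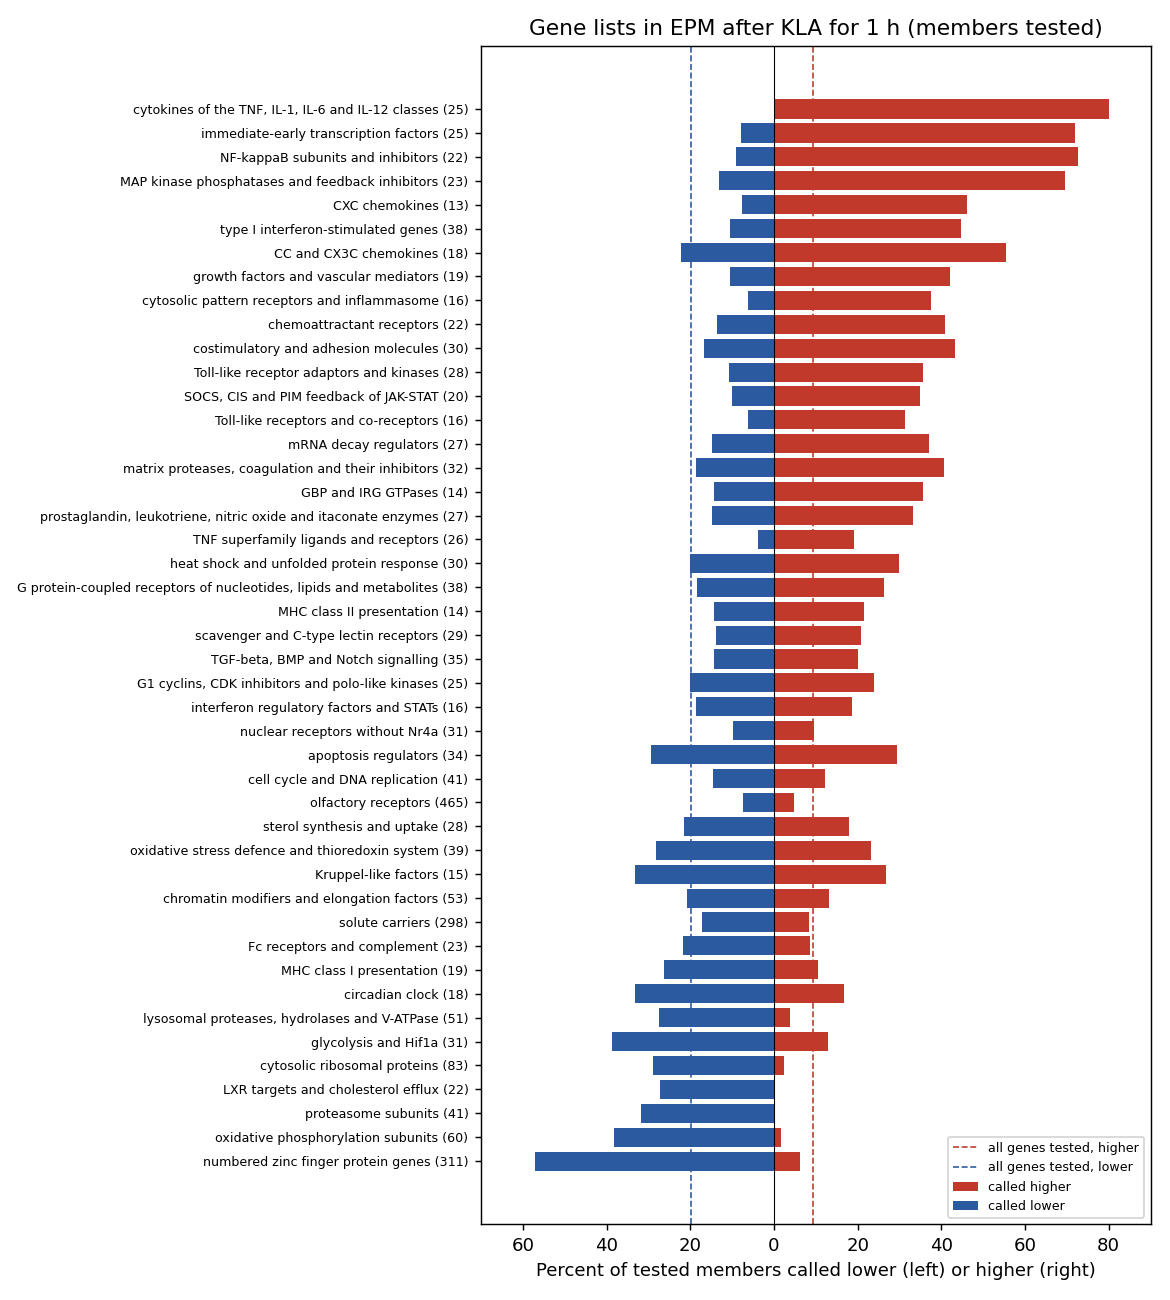
Percent of the tested members of each gene list called lower (blue bars, to the left) or higher (red bars, to the right) in EPM after KLA for 1 h, with the number of members tested in brackets and the shares of all genes tested as dashed lines at 9.40% and 19.9%. Cytokine, NF-kappaB and immediate-early genes are at the top with 20 of 25, 16 of 22 and 18 of 25 higher, and numbered zinc finger protein genes are at the bottom with 178 of 311 lower.

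The largest decreases were those of Txnip, Slc43a2 and Gadd45g, the only genes more than 4-fold lower. Txnip, an inhibitor of thioredoxin and of glucose uptake, went from 12.07 and 11.98 to 9.38 and 9.59 (RefSeq NM_001009935, probe at chr3:96646629-96646688 of mm8, log2 change -2.54, standard error 0.11, limma adjusted p = 3.05e-12), and its other probe gave -1.12. Slc43a2, an amino acid transporter, went from 9.15 and 9.26 to 6.75 and 6.72 (-2.47). Its other probe gave -0.56 and the control arrays differed by -1.38. Gadd45g, a gene of the growth arrest family, went from 15.09 and 15.19 to 12.96 and 13.17 (-2.07). With array means as samples none of these 3 passed the threshold (adjusted p = 0.201, 0.350 and 0.137).

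Receptors and regulators of transcription were among the next largest decreases. Cnr2, the cannabinoid receptor of immune cells, went from 10.95 and 10.83 to 9.05 and 8.90 (log2 change -1.92). Sertad3 (-1.86), Cebpa (-1.49), Lyl1 (-1.23), Hhex (-1.24), Epas1 (-1.22), Tsc22d3 (-1.42) and Id1 (-1.09) encode proteins of transcriptional control. Cebpa, a factor of myeloid cells, went from 12.25 and 12.42 to 10.71 and 10.98, and its other probe gave -1.26. Fbxo32, a ubiquitin ligase subunit, fell by 1.50. Rnf113a1, a spliceosome-associated ubiquitin ligase, went from 9.06 and 9.07 to 7.54 and 7.66 (-1.47). Of the 15 largest decreases, Zfp12, AI467606, Zfp273 and Rnf113a1 were called with array means as samples.

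Genes of numbered zinc finger proteins, many of which bind DNA, were lower as a group by small amounts. Of 311 tested, 178 were lower and 19 higher, that is 57.2% and 6.11%, against 19.9% and 9.40% of all genes. The median was -0.27 in EPM and -0.25 in BMDM after 1 h of KLA, and -0.05 in EPM after 12 h, while the pair of EPM control arrays differed by 0.04. The number lower lay between 153 and 203 in the alternatives that kept the channels as samples and was 4 with array means as samples. Zfp12 went from 10.05 and 9.92 to 8.13 and 8.01 (log2 change -1.92, standard error 0.07), Zfp61 from 9.71 and 9.51 to 8.02 and 7.69 (-1.76) and Zfp82 from 8.24 and 8.02 to 6.67 and 6.48 (-1.56). Zfp273 was not well above background after KLA and was at least 2.87-fold lower by its brightest probe, whereas its other probes gave log2 changes from -1.14 to -0.22. In all, 11 members were more than 2-fold lower and 3 more than 2-fold higher, and the latter were Zfp36, Zfp131 (1.28) and Zfp800 (1.06, other probe 0.31). Olfactory receptor genes, a family not known to act in macrophages, had 22 of 465 members higher and 34 lower, or 34 higher and 20 lower when changes were centred on the median. Clock genes had 3 of 18 higher and 6 lower, with Per1 at -0.94.

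The study's own list of early induced genes was defined by an increase of more than 3-fold at 1 h. It was chosen on these EPM samples, so that its direction here is not independent evidence. All 130 genes of it were tested, and 129 were higher and 128 were more than 2-fold higher, the exceptions being Klf2 and Clic4 (0.81, with 1.42 from its other probe). Of the 287 genes more than 2-fold higher, a lower limit than that of the list, 159 (55.4%) were outside it. Their median log2 change was 1.30, and only 44 of them exceeded the 3-fold limit of the list and 21 exceeded 4-fold. In BMDM 131 of the 159 were called higher at 1 h, against 11.0% of all genes, and 59 were called in EPM with array means as samples. The 59 include genes of a set described below as not seen in BMDM at 1 h or in EPM at 12 h, such as Sgpp2. None of the 72 decreases was on the list, which follows from its definition by increases. The largest increases outside it were Acod1 and Nfkbiz, described above, followed by Pde4b, a cyclic AMP phosphodiesterase, from 8.06 and 8.05 to 11.99 and 11.91 (log2 change 3.90, with 3.63 and 3.71 from its other probes). Rnd1, a small GTPase, went from 9.48 and 9.54 to 13.18 and 13.04 (3.60), but its other probes gave 0.09 and 1.81. Marcksl1, which encodes an actin-regulating protein, rose by 3.28, Rab11fip1, an endosome recycling factor, by 3.11, Gm6377 by 3.03, Ifi205, an interferon-inducible gene, by 3.01 and its relative Ifi211 by 2.33. Ccl5, a chemokine of T cells and monocytes, went from 11.94 and 12.02 to 14.65 and 14.81 (2.75). Sowahc rose by 2.47.

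Some of the 17193 genes tested crossed the detection level, most of them with changes of less than 2-fold. In 118 genes called higher, no untreated channel and both KLA channels were well above background, and 18 of these were more than 2-fold higher. Of the 18, 11 belong to the increases not seen in BMDM at 1 h or in EPM at 12 h, described next. The other 7 include Ifnb1, Csf2, Il23a, Il12b, Areg and Tnfsf4 (at least 2.48-fold), a ligand of T cell costimulation. In 132 genes called lower the reverse held, and 4 of these were more than 2-fold lower (Zfp273, Olfr561, Svs2 and Prrg1).

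A small set of increases was not seen in BMDM at 1 h or in EPM at 12 h, and the BMDM 12 h and B cell arrays were not examined for it. Of the 287 genes, 19 changed by less than 0.2 on the log2 scale either way in both BMDM at 1 h and EPM at 12 h, a limit chosen after the values were seen. Olfr1396 went from 5.89 and 5.93 to 8.28 and 8.34, Olfr395 from 5.89 and 5.95 to 8.13 and 8.12, Sgpp2 from 5.83 and 5.80 to 8.10 and 8.18, and Abca8b from 6.11 and 6.16 to 8.50 and 8.48. All untreated channels of these genes lay near the detection level. The spots of 9 of the 19 genes (47.4%) lay within 2 rows and 1 column of a spot of another gene more than 2-fold higher, against 23 of the other 268 genes (8.58%), and the spots of Olfr395 (row 12, column 62) and Olfr1396 (row 13, column 63) were neighbours. Over the 19 genes, the median of the changes of all spots around a gene was 0.12, against -0.02 around the others. Of the 19 genes, 11 were not well above background in untreated cells, 18 were called with array means as samples and 5 were on the study's list of early induced genes. Slc5a1, whose other probe gave -0.13 against 1.29, and Prss41 belonged to the same set. The part of spot position in these increases was not tested.

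BMDM showed much of the same early response. Of the 287 genes more than 2-fold higher in EPM, 252 were called higher in BMDM (11.0% of all genes were), 33 were not called and 2 were lower, and 181 were more than 2-fold higher, which is 63.1% of the 287 and 65.8% of the 275 of BMDM. Of the 72 genes more than 2-fold lower in EPM, 63 were called lower in BMDM (17.6% of all genes were), 9 were not called and none was higher, and 26 were more than 2-fold lower, 36.1% of each set of 72. The test of the difference between the responses called 1642 of 17189 genes (9.55%), among them 190 of the 287 and 33 of the 72. The increase was larger in EPM for 142 of the 190 and the decrease for 31 of the 33. These sets were chosen by their size in EPM, the BMDM control was DMSO for 1 h and the arrays lay on another slide. With array means as samples and both control arrays of each cell type pooled, no difference was called (415 genes at an unadjusted p under 0.05).

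Tnf rose by 6.73 in EPM and by 3.95 in BMDM, Nfkbiz by 6.23 and 3.22, Ccl4 by 5.96 and 3.42, and Ccl3 by 5.20 and 3.15. Cdk5r1, an activator of the kinase Cdk5, rose from 6.80 and 6.96 to 10.72 and 10.59 in EPM (3.77) and by 0.90 in BMDM. The reverse order was found for Il6 (3.07 in EPM and 6.07 in BMDM), Ccl5 (2.75 and 5.69), Cxcl10 (4.74 and 7.32), Il12b (1.54 and 3.63) and Ifnb1 (7.50 and 9.17). Inflammatory mediators thus fell on both sides of the comparison. Among the decreases, Id1, an inhibitor of basic helix-loop-helix factors, went down by -1.09 in EPM and by -3.10 in BMDM, whereas Fbxo32 was lower in EPM (-1.50) and at -0.11 in BMDM. Cxcl1 (7.24 and 6.87), Tnfaip3 (4.28 and 4.40), Socs3 (4.22 and 4.13) and Egr1 (4.10 and 4.03) did not pass the test of the difference.

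At 12 h most early increases in EPM were smaller. Of the 287 genes, 208 were still higher at 12 h (19.6% of all genes were), 56 were not called and 23 were lower. Of the 72 decreases, 48 were still lower (34.4% of all genes were), 17 were not called and 7 were higher. The difference between 12 h and 1 h passed the test in 7537 of 17186 genes (43.9%), among them 251 of the 287, with 173 smaller and 78 larger at 12 h. It also passed in 60 of the 72, of which 56 were smaller in size at 12 h. The 287 and the 72 were chosen by the size of their change at 1 h, and the same values enter the difference, which favours smaller changes at 12 h. The control at 12 h was DMSO and that at 1 h was untreated.

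The change of Ifnb1 was 7.50 at 1 h and 1.22 at 12 h, with Tnfsf9 at 6.07 and 1.69, Nfkbiz at 6.23 and 2.26, Egr1 at 4.10 and -0.85, and Egr2, its relative, at 2.60 and -1.56. The list of immediate-early transcription factors had a median of 0.88 at 1 h and of -0.05 at 12 h. Interferon-stimulated genes moved the other way, with a median of 0.18 at 1 h and of 3.98 at 12 h, and guanylate-binding protein and immunity-related GTPase genes went from 0.02 to 5.21. Ifit3 rose by 1.39 at 1 h and by 8.84 at 12 h, Ifit2 by 1.20 and 7.34, and Gbp3 by 1.51 and 6.49. Some mediators were higher at both times, each against its own control, with log2 changes at 1 h and 12 h of 7.71 and 6.97 for Il1b, 6.74 and 8.60 for Acod1, 6.73 and 5.75 for Tnf and 4.22 and 4.03 for Socs3. By the test of the difference (limma), the change at 12 h was smaller for Il1b (adjusted p = 6.06e-05) and Tnf (adjusted p = 6.01e-07), larger for Acod1 (adjusted p = 3.24e-10) and not called as different for Socs3 (adjusted p = 0.25). These are changes and not levels, since the DMSO control at 12 h differed from untreated cells by -1.65 for Il1b, -1.18 for Tnf, -0.78 for Acod1 and -0.65 for Socs3. Of the decreases, Cnr2 went further down (-1.92 and -3.21), Cebpa (-1.49 and -1.71) and Lpar6 (-1.56 and -1.79) were lower at both times, and Ddit3 (-1.33 and 0.63) and S1pr2 (-1.22 and 0.61) were lower at 1 h and higher at 12 h.

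**Figure D4:**
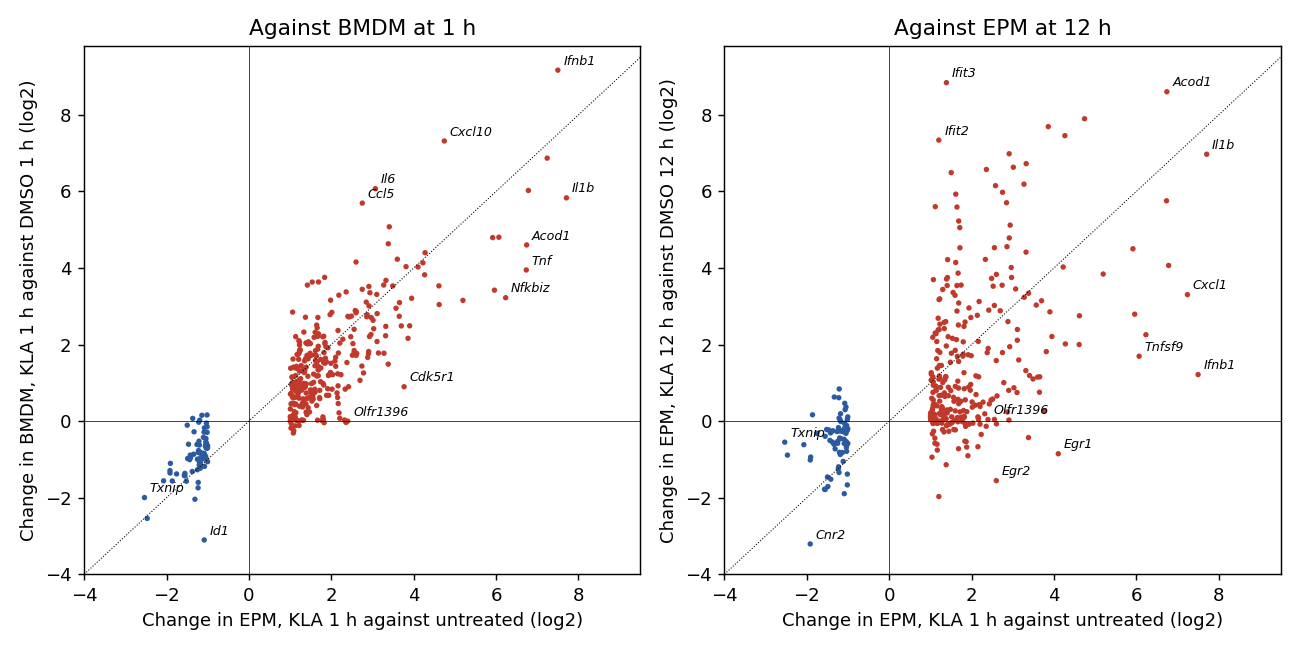
Log2 change of the 359 genes more than 2-fold changed in EPM after KLA for 1 h (horizontal axes; red higher, blue lower) against the change in BMDM at 1 h (left, vertical axis) and in EPM at 12 h (right, vertical axis), with equal changes on the dotted line. Il6 and Ccl5 lie above the line and Tnf and Nfkbiz below it on the left, and Ifit3 at 8.84 and Egr1 at -0.85 mark the opposite courses on the right.

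The promoters of the induced genes held some motifs more often than those of all genes tested. A window was the 250 bases before the start, both strands were searched, and TATAAA was searched only near the start. Of 16155 windows of the genes tested, 8.68% held the kappaB consensus, against 21.5% of the 275 windows of genes more than 2-fold higher, 34.0% of the 47 windows of genes more than 8-fold higher and 5.63% of the 71 windows of genes more than 2-fold lower. TATAAA was found in 2.44%, 6.55%, 14.9% and 2.82% of windows, in that order, the AP-1 site TGANTCA in 5.42%, 11.3%, 14.9% and 5.63%, and the core GAAANNGAA of the interferon-stimulated response element in 6.58%, 12.7%, 17.0% and 5.63%. The full cyclic AMP response element TGACGTCA was in 2.25% of all windows and in 5.09% of those of genes more than 2-fold higher. It was in 8.51% (4 of 47) of those of genes more than 8-fold higher. Among windows of genes more than 2-fold lower its share was 4.23% (3 of 71), also above that of all windows. The E-box CACGTG was in 7.58% of all windows, 7.64% of those of genes more than 2-fold higher and 8.51% of those more than 8-fold higher. The GC box GGGCGG was in 50.7%, 51.3% and 34.0% (16 of 47), in that order. The ETS core CCGGAAGT was in 4.72% and 2.55% and the CArG box in 1.29% and 2.18%, and neither was in any of the 47 windows. Windows of the same gene overlap in part and are not independent, the kappaB consensus can match both strands at the same place, and these shares were compared without a test.

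**Figure D5:**
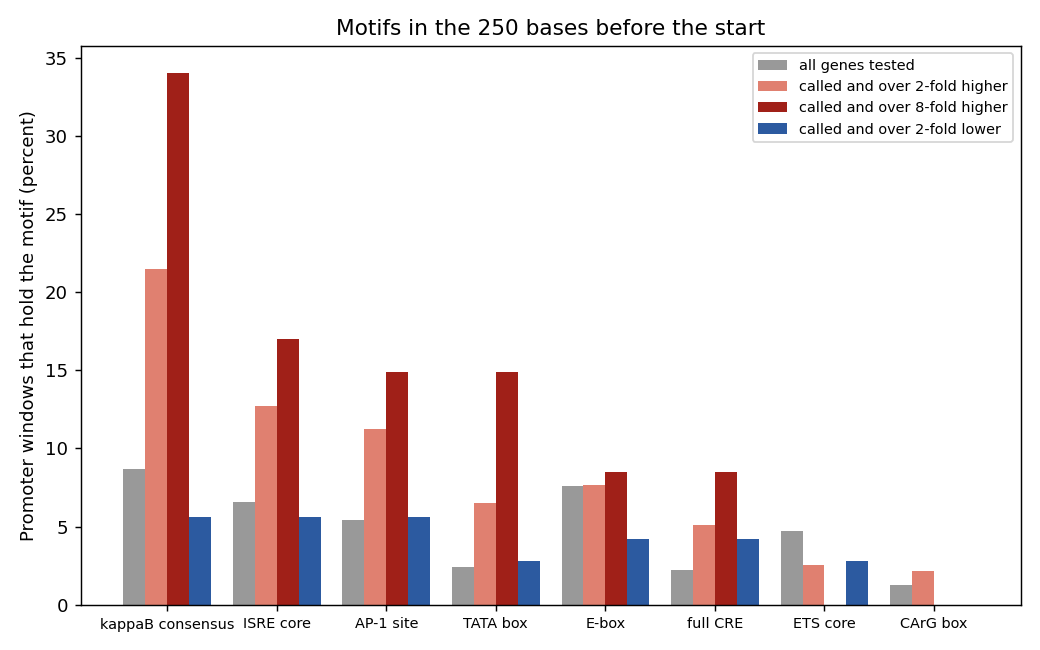
Percent of promoter windows (250 bases before the start) that hold each motif except the GC box, which is not drawn, for all genes tested (grey), genes more than 2-fold higher (light red), more than 8-fold higher (dark red) and more than 2-fold lower (blue). The kappaB bars climb from 8.68% to 21.5% and 34.0%, and the E-box bars stay between 4.23% and 8.51%.

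The probe-level fit covered probes without a gene symbol too. Of 30721 probes tested, 8299 (27.0%) were called, 3125 higher and 5174 lower, so that 37.7% of the called probes were higher. Of the same probes 488 were more than 2-fold higher and 118 more than 2-fold lower. Among 3527 probes without a symbol 333 were higher and 416 lower, so that 44.5% of those called were higher. In this group 53 were more than 2-fold higher and 17 more than 2-fold lower. The largest of these increases was that of probe A_52_P384916 (chr16:55742440-55742499 of mm8, log2 change 2.61), which lies on the chromosome of Nfkbiz, whose own probe is at chr16:55736929-55736988, and the largest decrease that of probe A_51_P313256 (chrX:146958443-146958502, -2.24).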

How the data were processed

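RNA of 12 conditions was measured on 12 Agilent arrays with 2 colours, and the 4 EPM channels of the 1 h comparison were described. The authors deposited scanner intensities made with Agilent Feature Extraction 9.5.3.1, with the mean intensity, the local background and flags of each spot, and a table of normalized intensity values used only as an alternative. The normalization of that table is not given in the sources used here. Probe coordinates are those of the files, on mm8.

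Background was corrected with normexp (offset 50), controls were left out, each array was normalized by loess, mean intensities were then brought to a common distribution (Aquantile), and the log2 value of each channel was used. The offset understates the change of dim genes. Outlier spots were set missing (134 missing values), spots of a probe were averaged, and the brightest of several probes stood for a gene, with the others given where they disagreed. Of 41174 probes, 34851 carried 1 of 21329 symbols, taken by accession or symbol from the RefSeq gene table where it held them. A gene entered the test where any condition had it well above background in its 2 channels. limma (3.58.1, with statmod 1.5.0) in R (4.3.3) fitted 1 coefficient per condition over 24 channels (12 residual degrees of freedom), with tables read by data.table (version 1.17.8). Tests were two-sided, and a gene was called where its Benjamini-Hochberg adjusted p, taken over the whole table of tested genes, was under 0.05. The fit was tested on simulated data. The number of arrays and the signal over background, 1.86 to 2.91 at the median spot, limit the precision. A fold written as "at least" sets the bright group against the dim one, each dim channel taken at its own signal or, where that is lower, at the lowest signal well above background (5.44 to 6.16 on the log2 scale).

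Replicate numbers stand for the dyes. Over genes, the Cy5 minus Cy3 differences of any 2 arrays correlated (r = 0.27 to 0.63 over 66 pairs, and 0.44 between KLA 1 h and its control), so that the dye pairs the channels. A fit with the dye as replicate block was therefore made.

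The gene lists and members were chosen with earlier results of these data known. Genes were named by rule, as those past the threshold with the groups apart and the brighter group detected: the 15 largest changes each way, the 15 largest increases outside the study's list of early induced genes and up to 3 each way in each gene list. Other genes named were chosen after their values were seen.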

Additional observations from a re-analysis of the deposited data

Results flagged for a closer look

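The early responses of EPM and BMDM differed in 1642 genes by the interaction test (limma, adjusted p under 0.05). However, no difference was called with array means as samples and both control arrays of each cell type pooled (415 genes at an unadjusted p under 0.05). The arrays also lay on different slides, and the controls were untreated cells and DMSO. Among genes more than 2-fold changed in EPM, the difference of EPM minus BMDM exceeded 4-fold in 16. It was positive for Nfkbiz (3.01 on the log2 scale), Cdk5r1 (2.87), Tnf (2.79), Ccl4 (2.54), Olfr1396 (2.40), Abca8b (2.39), Sgpp2 (2.29), Acod1 (2.14), Olfr395 (2.13) and Ccl3 (2.04), and for Id1 (2.02), which was lower in both. Olfr1396, Abca8b, Sgpp2 and Olfr395 belong to the increases not seen in BMDM at 1 h or in EPM at 12 h. The difference was negative for Il6 (-3.0), Ccl5 (-2.94), Cxcl10 (-2.58), Cd69 (-2.13), a marker of early activation, and Il12b (-2.10).

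The EPM responses at 12 h and 1 h differed in 7537 genes by the same kind of test. The change at 12 h exceeded that at 1 h by more than 16-fold for the interferon-stimulated genes Ifit3 (7.45), Ifit2 (6.14), Gbp3 (4.99), Mx2 (4.21) and Rsad2 (4.07), and for Calhm6 (4.48) and Hcar2 (4.31), a receptor of nicotinic acid. It fell short of the change at 1 h by more than 16-fold for Ifnb1 (-6.28), Egr1 (-4.96), Tnfsf9 (-4.37) and Egr2 (-4.16).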

How the results depend on the processing

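Most counts stayed within 1.5 times of their value under most alternatives, and array means as samples gave the lowest counts where they could be used. With array means, both control arrays of each cell type were pooled. In EPM at 1 h 162 genes were called, 143 higher and 19 lower, 136 more than 2-fold higher and 16 more than 2-fold lower. At the probe level 317 were called, and 193 of 254 named genes were no longer past the threshold. The difference from BMDM, with these pooled controls, was called in 0 genes. In the contrast of 12 h and 1 h the pooled control cancels, so that it compares the KLA arrays directly. It called 1284 genes, which is not a count of differences between the 2 responses. An offset of 16 gave 148 genes more than 2-fold lower, and Feature Extraction's processed signal gave 575 more than 2-fold higher and 468 lower. The authors' values gave 1982 genes lower, so that 46.0% of the called genes were higher, against 32.1% as reported and 44.7% when changes were centred on the median. The replicate block, with dye as the pairing, called 7024 genes at 1 h, 3079 for the difference from BMDM and 5114 between the EPM control arrays. A threshold of 0.01 gave 2251 genes lower at 1 h, 995 for the difference from BMDM and 2051 between control arrays, and detection in all channels compared gave 1016 for the difference from BMDM. Leaving out each replicate gave 3425 to 5025 genes called at 1 h, 1203 to 1625 higher, 2222 (without the Cy5 channel of KLA 1 h) to 3408 lower, 284 to 301 more than 2-fold higher and 69 to 83 more than 2-fold lower, 5653 to 8330 probes, 1141 to 1630 genes for the difference from BMDM, 6661 to 7556 for 12 h against 1 h and 1994 (without the Cy5 channel of untreated EPM) to 3284 between control arrays. Some named genes reversed: Tapbp (-0.11 with processed signal), Cd68 (0.018 with the authors' values), B2m (0.12 with the mean of all probes) and, with array means, Ccl6 (0.052), Oas1b (0.024), Nr2f2 (-0.16) and Kif23 (-0.024). In alternatives that kept the channels as samples, the number of lower members moved by more than 1.5 times at least once in 37 of 45 gene lists and that of higher members in 19. The cause of these moves was not tested. Dim genes are limited by the offset and by signal over background.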
